A study of Rattus norvegicus with 3 samples.

Results

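Calcium extrusion exchangers and pumps are membrane proteins, most of which move calcium ions out of the cytosol. Slc8b1, included here, instead releases calcium from mitochondria. The 10 genes described here were chosen by name from 3 families, and all 10 were found among the 16516 genes of the authors' deposited table. They are Slc24a1, Slc24a3, Slc24a4 and Slc24a5, of the exchangers that trade calcium and potassium for sodium, Slc8a1, Slc8a3 and Slc8b1, of the exchangers that trade calcium for sodium alone, and Atp2b1, Atp2b2 and Atp2b4, of the calcium pumps of the plasma membrane. The study sequenced RNA of cervical loop cells, where the enamel epithelium renews itself, of secretory ameloblasts, which lay down enamel matrix, and of maturation ameloblasts, under which the enamel hardens. All 3 populations were dissected from enamel organs of rats of the Wistar Hannover strain, 5 rats per the series' design text, and the labels name no treatment, transgene, age or sex. Per the labels, the cervical loop sample of 1 rat was excluded for an RNA integrity number below 7, and each library gave 25000000 single-end reads, 75 bases long. Each stage is 1 sample with 1 deposited mean per gene, so no standard deviation is given and the authors' p-values are the sole record of replicate error.

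Enamel crystals grow in a closed compartment under the ameloblast layer, so calcium has to pass through these cells or between them. Calcium pumps use ATP to push calcium out, while the exchangers draw on the sodium gradient that the sodium pump maintains, and the potassium-dependent kind also on the potassium gradient. Slc24a4 encodes a potassium-dependent exchanger whose loss causes amelogenesis imperfecta, an inherited failure of enamel to mineralise. Its protein lies in the plasma membrane of maturation ameloblasts.

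The unit of the means is not stated in the file headers, and whether it accounts for gene length is not known. Levels were therefore compared between stages of 1 gene and never between genes. Sums of marker means are given only as a description and are weighted to the genes with the largest values. Adjusted p-values are false discovery rates (FDR), adjusted by Benjamini-Hochberg across the 16516 genes of a comparison, and a gene is said to rise or fall where its FDR was under 0.05. Summed means of 4 markers of secretory ameloblasts were 2920 in the cervical loop, 112877 in secretory and 5621 in maturation cells, in the authors' deposited table. Of these 4, only Ambn passed for maturation against the cervical loop, at 5251 and 1306 in the authors' deposited table. Amelx and Enam had lower means in maturation than in the cervical loop, and Mmp20 a higher one, without passing. Sums of 4 markers of maturation ameloblasts were 82.3, 499 and 4887 in the authors' deposited table, and those of 4 genes of dividing or stem cells 478, 63.2 and 58.1. In the sums of the authors' deposited table, 6 mesenchyme markers stood at 9708, 10308 and 13856. Of the 6, 1 rose and 1 fell into the secretory stage (beside 16.5% and 25.2% of all genes). Into maturation 2 rose and 0 fell (beside 21.8% and 21.1% of all genes). In maturation against the cervical loop 3 were higher and 0 lower (beside 24.1% and 33.7% of all genes). The part of mesenchyme in the levels of the exchangers and pumps was not tested. The samples were bulk tissue, in which fewer cells of a type and less RNA per cell cannot be told apart.

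From the cervical loop to the secretory stage, Atp2b1, Atp2b4 and Slc24a3 rose and Atp2b2 fell, 4 of 10 genes, beside 41.8% of all genes called (16.5% higher, 25.2% lower). From the secretory to the maturation stage, Slc24a4 and Slc8b1 rose and Slc24a3, Slc8a3, Atp2b1 and Atp2b4 fell, 6 of 10, beside 42.9% of all genes (21.8% higher, 21.1% lower). Between the cervical loop and maturation, Slc24a4 was higher and Slc24a5, Slc8a3 and Atp2b2 were lower, 4 of 10, beside 57.8% of all genes (24.1% higher, 33.7% lower). With 10 genes, nothing particular to the group is read from these counts. Each pair of comparisons shares a stage, so the 3 are not independent. The median difference over the 10 genes, on the log2(mean + 1) scale, was 0.10, -0.06 and -0.08 in the 3 comparisons, where all genes had -0.09, 0.0030 and -0.09. Genes whose FDR passed against both other stages in the same direction were also counted, which is not the order of the means. Of the 10, 3 passed as higher in secretory cells (7.99% of all genes), 1 in maturation (14.6%) and 1 in the cervical loop (18.6%). Passing as lower than both held for 1 gene in maturation (13.7%), 0 in secretory cells (6.20%) and 0 in the cervical loop (9.37%). Another 2 genes passed for no pair (27.9%).

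**Figure D1:**
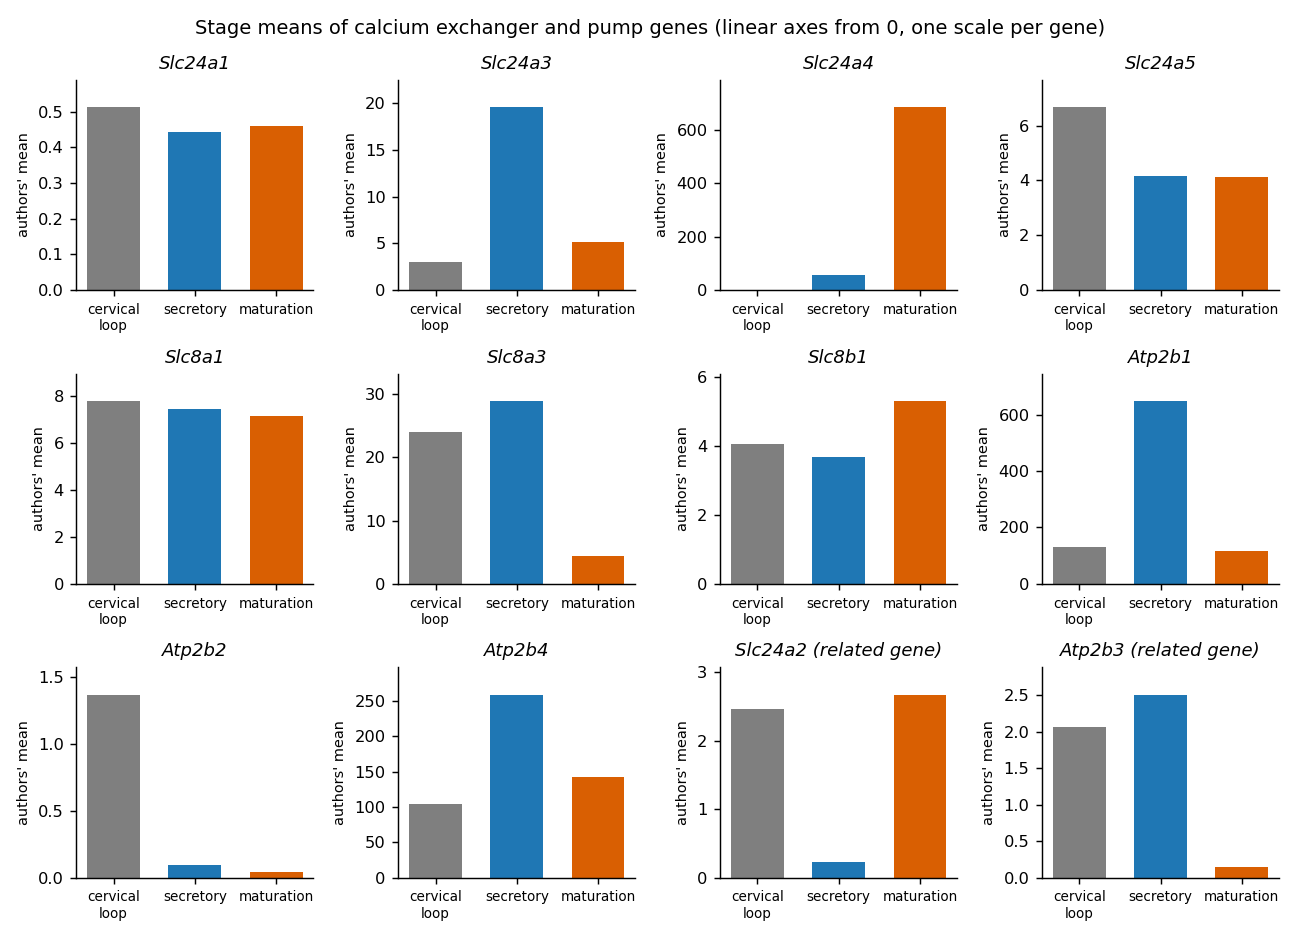
Deposited mean of each gene (vertical axes, unit not stated in the headers) in cervical loop, secretory and maturation samples, with 1 mean per stage and so no error bars. Each panel has its own scale from 0; Slc24a4 is tallest in maturation at 684, Atp2b1 in secretory cells at 648, and Slc8a1 stays between 7.17 and 7.79. Slc24a2 and Atp2b3 are related genes outside the 10.

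Slc24a4, the potassium-dependent exchanger of enamel maturation, had a mean of 1.5 in the cervical loop, 54.9 in secretory and 684 in maturation cells in the authors' deposited table. The 3 stages thus stood in ascending order, with the maturation level far above the other two. The maturation mean was 12.5 times the secretory one (FDR = 0.00884) and 455 times that of the cervical loop (FDR = 0.00125) in the authors' deposited table. The step from cervical loop to secretory cells, 36.5-fold, missed the threshold (FDR = 0.0941) in the authors' deposited table. The scale of the authors' model is not stated, so a ratio of means and its p-value may measure different quantities. With 1 added to each mean, the folds against the low cervical loop mean shrank to 22.3 for secretory and 274 for maturation cells.

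The isoform tables hold 3 Slc24a4 transcripts, each with its own mean. In the authors' deposited table for maturation against secretory cells, Slc24a4-201 stood at 36.7 and 385 (10.5-fold higher, FDR = 0.00216). Slc24a4-203 stood at 27.9 and 217 (FDR = 0.00938) and Slc24a4-202 at 15.3 and 88.1 (FDR = 0.00185) in the authors' deposited table. All 3 transcripts rose together. The test for a change in their make-up gave FDR = 0.947 in the authors' deposited table. The cervical loop and secretory means of these transcripts differed between the tables. The secretory means of Slc24a4-201, Slc24a4-202 and Slc24a4-203 were 25.4, 4.1 and 16.6 in the authors' deposited table against the cervical loop. Slc24a4-201 had a cervical loop mean of 12.9 in the authors' deposited table against secretory cells and of -1.16 in the one against maturation. Slc24a4-202 and Slc24a4-203 were likewise at 12.5 and 12.7 in one and at -1.59 and -1.41 in the other of the authors' deposited tables. A level below 0 has no reading as RNA, and no fold of these transcripts against the cervical loop is given or drawn. The p-values of 0 that stand beside them in the authors' deposited table were counted as calls but give no size.

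Among the other 16515 genes, Gpr155, Odam, Klk4, Car6 and Slc34a2 had the stage pattern nearest to Slc24a4. Likeness was the Euclidean distance between log2(mean + 1) at the 3 stages, centred on each gene's own average. It was 1.61 for Gpr155, 1.71 for Odam, 1.91 for Klk4, 1.92 for Car6 and 1.97 for Slc34a2 on that log2 scale. Odam encodes a protein that maturation ameloblasts secrete, Klk4 the protease that removes enamel matrix, Car6 a secreted carbonic anhydrase and Slc34a2 a sodium-phosphate cotransporter. Gpr155 stood at 5.07, 27.1 and 694 in cervical loop, secretory and maturation cells in the authors' deposited table. Like Slc24a4, 4 of the 5 genes passed for maturation against secretory cells but not for secretory cells against the cervical loop. Slc34a2 passed both. As the 5 were picked by these same means, similar calls follow in part from the choice. With 3 points per gene the likeness is a description, and the neighbours depended on the scale. With 0.1 in place of 1, Slc34a2 and Car6 were still among the nearest 5, beside Csn3, AABR07072759.1 and Myh4. Of the other 9 exchangers and pumps the nearest was Atp2b4, at a distance of 5.44 and rank 3208, and the farthest Slc8a3, at rank 16197.

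**Figure D2:**
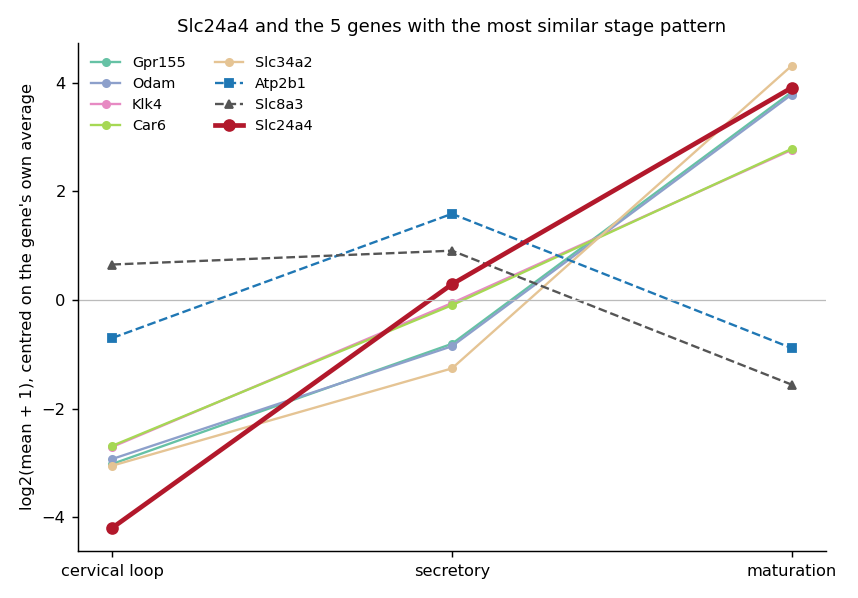
Stage pattern of Slc24a4 (thick red line) with its 5 nearest genes (solid lines) and, for contrast, Atp2b1 and Slc8a3 (dashed lines); the vertical axis is log2(mean + 1) minus the gene's own average over the 3 stages on the horizontal axis. The 5 nearest genes climb with Slc24a4 to maturation, the lines of Klk4 and Car6 lying on top of each other, while Atp2b1 peaks in secretory cells and Slc8a3 is lowest in maturation.

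Atp2b1, the widely expressed plasma membrane calcium pump, had a mean of 132 in the cervical loop, 648 in secretory and 116 in maturation cells in the authors' deposited table. Only the secretory value stood out. It was 4.90-fold above the cervical loop (FDR = 0.00391) and 5.58-fold above maturation (FDR = 0.0031), while maturation against the cervical loop did not pass (FDR = 0.985), in the authors' deposited table. Both Atp2b1 transcripts moved the same way. Atp2b1-201 stood at 109 and 521 in cervical loop and secretory cells (FDR = 0.00417), and at 98.8 in maturation (FDR = 1.56e-05 against secretory cells), in the authors' deposited table. Atp2b1-202 stood at 22.4, 127 and 18.5 in the same order (FDR = 0.00271, then FDR = 4.77e-06), in the authors' deposited table. Its share of the summed transcript means was 17.0% in the cervical loop, 19.6% in secretory and 15.8% in maturation cells. The make-up test passed for neither step (FDR = 0.935, then FDR = 0.607), in the authors' deposited table.

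Atp2b4, another pump of the same family that also extrudes calcium from red blood cells, had a mean of 105 in the cervical loop, 259 in secretory and 142 in maturation cells in the authors' deposited table. The order of stages was secretory, maturation, cervical loop, and the last 2 were not told apart by the test. It rose 2.47-fold into the secretory stage (FDR = 0.00248) and fell 1.82-fold into maturation (FDR = 0.00649), while maturation against the cervical loop did not pass (FDR = 0.0788), in the authors' deposited table. Both of its transcripts passed in both steps. Atp2b4-202 stood at 93.4 and 220 in one of the authors' deposited tables and at 218 and 122 in the next. Of the 3 erythroid markers measured, 0 passed in either step (beside 41.8% and 42.9% of all genes). In maturation against the cervical loop 1 of them, Slc4a1, was higher (FDR = 0.0414), in the authors' deposited table. In that comparison 24.1% of all genes were higher. The summed means of the 3 markers were 389, 403 and 537 in the authors' deposited table. None of the 3 was at or below 0.1. Whether blood cells had a part in the Atp2b4 values was not tested.

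Slc24a3, a potassium-dependent exchanger found in brain and smooth muscle among other tissues, had a mean of 3.07 in the cervical loop, 19.6 in secretory and 5.19 in maturation cells in the authors' deposited table. The secretory level was again the highest, at 6.39 times the cervical loop (FDR = 0.00178) and 3.78 times maturation (FDR = 0.0046), in the authors' deposited table. Maturation against the cervical loop, 1.69-fold, missed the threshold (FDR = 0.0674), in the authors' deposited table. Of 6 markers of smooth muscle and pericytes, 0 rose and 1 fell into the secretory stage (beside 16.5% and 25.2% of all genes). Into maturation 2 rose and 2 fell (beside 21.8% and 21.1% of all genes). The summed means of the 6 markers were 241, 179 and 222 in the authors' deposited table. None of them was at or below 0.1 in any stage, and their part in the Slc24a3 values was not tested.

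**Figure D3:**
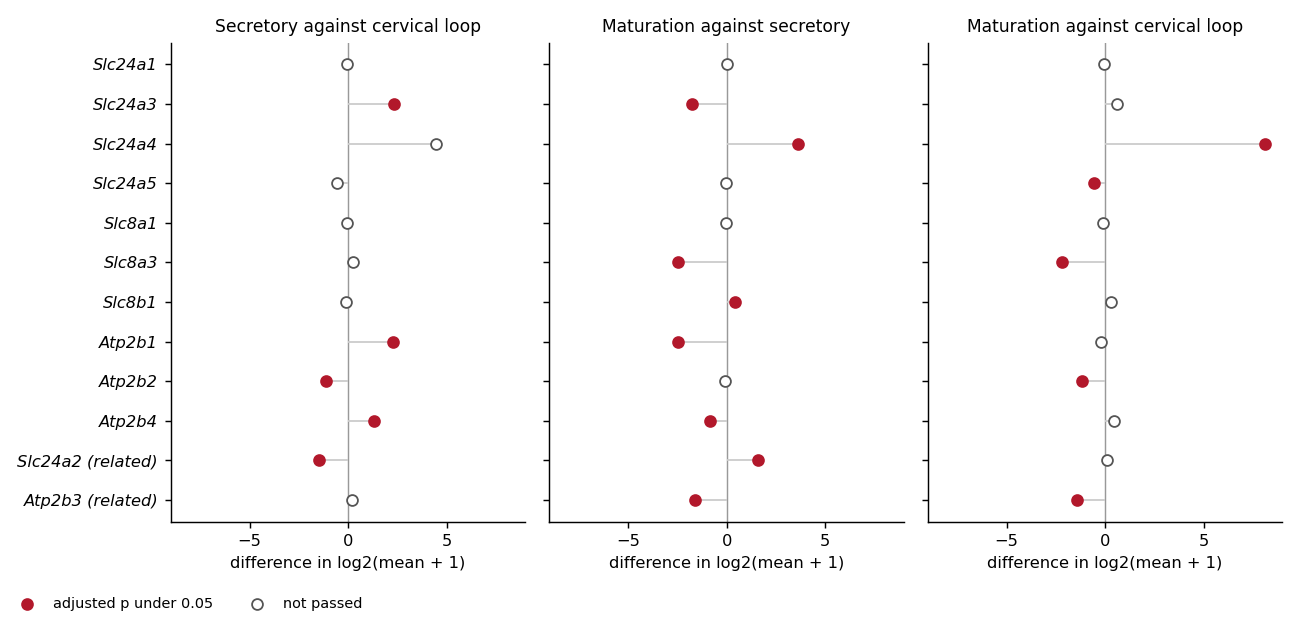
Difference in log2(mean + 1) (horizontal axes) of the 10 genes and 2 related genes in the 3 comparisons; filled points passed an adjusted p of 0.05 and open points did not. Atp2b1, Atp2b4 and Slc24a3 lie right of 0 in the first panel and left of 0 in the second, while Slc24a4 lies right of 0 throughout, its open point in the first panel being at 4.48.

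Upstream sequences of the 3 genes that passed as higher in secretory cells than in both other stages, and of Slc24a4, are shown. From the secretory to the maturation stage the 3 genes fell while Slc24a4 rose. The sequences are the 250 bases before the transcription start listed by RefSeq on build GRCr8, matched by symbol, which succeeded for 8 of the 10 genes. Their coordinates are not on build rn6, which the submitters' processing notes name. The start used is the outer end of the RefSeq gene for Slc24a4 and Slc24a3, but not for Atp2b1 and Atp2b4. Slc24a4 is at chr6:127044220-127044469 (plus strand), Atp2b1 at chr7:35622211-35622460 (plus strand), Atp2b4 at chr13:47758877-47759126 (minus strand) and Slc24a3 at chr3:153005168-153005417 (plus strand). Each is printed in the gene's own direction, and capitals mark matches to the motifs named next.
Slc24a4: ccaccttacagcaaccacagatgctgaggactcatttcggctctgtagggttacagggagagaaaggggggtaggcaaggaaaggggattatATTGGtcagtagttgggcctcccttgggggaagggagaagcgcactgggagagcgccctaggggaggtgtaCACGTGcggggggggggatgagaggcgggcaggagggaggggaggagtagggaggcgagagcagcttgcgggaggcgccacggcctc
Atp2b1: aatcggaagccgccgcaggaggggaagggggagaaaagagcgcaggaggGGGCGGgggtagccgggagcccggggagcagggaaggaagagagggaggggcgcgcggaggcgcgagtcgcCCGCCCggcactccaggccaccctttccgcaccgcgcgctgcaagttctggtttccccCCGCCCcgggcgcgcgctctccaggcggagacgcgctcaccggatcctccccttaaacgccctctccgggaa
Atp2b4: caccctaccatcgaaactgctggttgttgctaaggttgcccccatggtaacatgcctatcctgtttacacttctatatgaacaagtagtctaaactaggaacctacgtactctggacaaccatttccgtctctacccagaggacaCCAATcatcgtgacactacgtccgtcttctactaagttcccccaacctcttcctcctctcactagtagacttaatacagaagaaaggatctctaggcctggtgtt
Slc24a3: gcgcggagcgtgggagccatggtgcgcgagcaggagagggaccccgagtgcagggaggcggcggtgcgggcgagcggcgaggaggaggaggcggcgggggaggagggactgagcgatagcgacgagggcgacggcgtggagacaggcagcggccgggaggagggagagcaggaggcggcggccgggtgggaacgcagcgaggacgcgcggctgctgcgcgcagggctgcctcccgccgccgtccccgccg

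Each sequence was searched on both strands for the TATA box, spelled TATAAA, the GC box, spelled GGGCGG, the CCAAT box, spelled by its name, and a palindromic E-box, spelled CACGTG. None of the matches overlapped another. Of 33469 RefSeq windows of the same length, 12.9% held the TATA box, 30.5% the GC box, 34.0% the CCAAT box and 5.59% the E-box. A match is a description of the letters and not a bound site. Slc24a4 had 1 CCAAT box, read as ATTGG, beginning 158 bases before the start, and 1 E-box beginning 87 bases before it. Atp2b1 had 3 GC boxes, 2 of them read as CCGCCC, beginning 201, 130 and 72 bases before its start. Atp2b4 had 1 CCAAT box at 105 bases, and Slc24a3 had no match to any of the 4 motifs. The windows also differed in base composition: GC content was 78% for Slc24a3, 72.8% for Atp2b1, 62.8% for Slc24a4 and 46.4% for Atp2b4, where the median of all windows was 51.2%. The 3 genes that passed as higher in secretory cells than in both other stages thus shared none of these motifs among all 3.

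Slc8a3, a sodium-calcium exchanger known from brain and skeletal muscle, had a mean of 24.0 in the cervical loop, 28.8 in secretory and 4.41 in maturation cells in the authors' deposited table. Secretory cells against the cervical loop did not pass (FDR = 0.254), and maturation was 6.54-fold below secretory cells (FDR = 0.00162) and 5.45-fold below the cervical loop (FDR = 0.00248), in the authors' deposited table. It was the only one of the 10 genes that passed as lower in maturation than in both other stages, a pattern of 13.7% of all genes. Of 7 skeletal muscle markers, 0 were called higher in any comparison and 1, Actn3, was called lower in maturation than in secretory cells. Their summed means were 4.09, 8.23 and 123 in the authors' deposited table, with Mb at or below 0.1 in the cervical loop. The part of muscle in the Slc8a3 values was not tested.

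Slc8a1, the sodium-calcium exchanger best known from heart muscle, had means of 7.79, 7.47 and 7.17 in cervical loop, secretory and maturation cells in the authors' deposited table. No pair of stages passed (FDR = 0.789 for secretory against cervical loop, FDR = 0.722 for maturation against secretory and FDR = 0.475 for maturation against cervical loop), in the authors' deposited table. Of its 5 transcripts, 1 was called in 1 comparison. This transcript, Slc8a1-202, stood at 0.485 in the cervical loop, 1.22 in secretory and 0.479 in maturation cells in the authors' deposited table. It fell 2.55-fold from secretory to maturation cells (FDR = 0.0136), and its difference between cervical loop and secretory cells did not pass (FDR = 0.0845), in the authors' deposited table. Slc8a1-204, with the highest mean of its 5 transcripts, stayed at 3.75, 3.60 and 3.59 in the same order in the authors' deposited table. The make-up test for the gene did not pass in maturation against secretory cells after adjustment (p = 0.0324, FDR = 0.368 in the authors' deposited table).

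Slc8b1, the exchanger that releases calcium from mitochondria, had means of 4.06, 3.69 and 5.29 in cervical loop, secretory and maturation cells in the authors' deposited table. Maturation was 1.44-fold above secretory cells (FDR = 0.0369), the smallest fold among the 6 of the 10 genes called in that comparison, in the authors' deposited table. Neither secretory cells (FDR = 0.63) nor maturation cells (FDR = 0.0609) passed against the cervical loop in the authors' deposited table. At a threshold of 0.01 the Slc8b1 call was lost.

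Slc24a5, an exchanger of intracellular membranes best known for pigmentation, had means of 6.67, 4.15 and 4.12 in cervical loop, secretory and maturation cells in the authors' deposited table. Secretory and maturation means lay close together (FDR = 0.947 in the authors' deposited table). Only maturation against the cervical loop passed, 1.62-fold lower (FDR = 0.0345), and the drop from cervical loop to secretory cells, 1.61-fold, did not (FDR = 0.0593), in the authors' deposited table. A threshold of 0.01 removed the call. Of 3 melanocyte markers, Tyrp1, Pmel and Mlana, Pmel was lower and Tyrp1 higher in maturation than in the cervical loop (beside 33.7% and 24.1% of all genes). Their summed means were 2.31, 1.08 and 2.24 in the authors' deposited table. Tyrp1 was at or below 0.1 in the cervical loop and in secretory cells. The part of pigment cells in the Slc24a5 values was not tested.

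Slc24a1, the exchanger of rod photoreceptors, had means of 0.513, 0.442 and 0.460 in cervical loop, secretory and maturation cells in the authors' deposited table, and no pair passed. The FDR was 0.565, 0.774 and 0.724 for the 3 comparisons in the authors' deposited table. Of 2 photoreceptor markers, Pde6b was higher in maturation than in secretory cells, beside 21.8% of all genes, while Gnat1 did not pass. Their summed means were 0.313, 0.341 and 4.52 in the authors' deposited table. Neither was at or below 0.1, and their part was not tested.

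Atp2b2, the calcium pump of inner ear hair cells and lactating mammary gland, had a mean of 1.37 in the cervical loop, 0.0939 in secretory and 0.0460 in maturation cells in the authors' deposited table. The last 2 values lie at or below 0.1, which was taken as the floor, so no fold is given. Both were lower than in the cervical loop (FDR = 0.00129 for secretory and FDR = 0.000286 for maturation cells), and the comparison between them did not pass (FDR = 0.153), in the authors' deposited table. With 1 added to each mean the differences from the cervical loop were -1.11 and -1.18 in log2. In the authors' deposited table, Atp2b2-202 stood at 1.06 in the cervical loop and 0.114 in secretory cells (FDR = 0.00788), and Atp2b2-201 at 0.321 and 0.134 (FDR = 0.173).

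**Figure D4:**
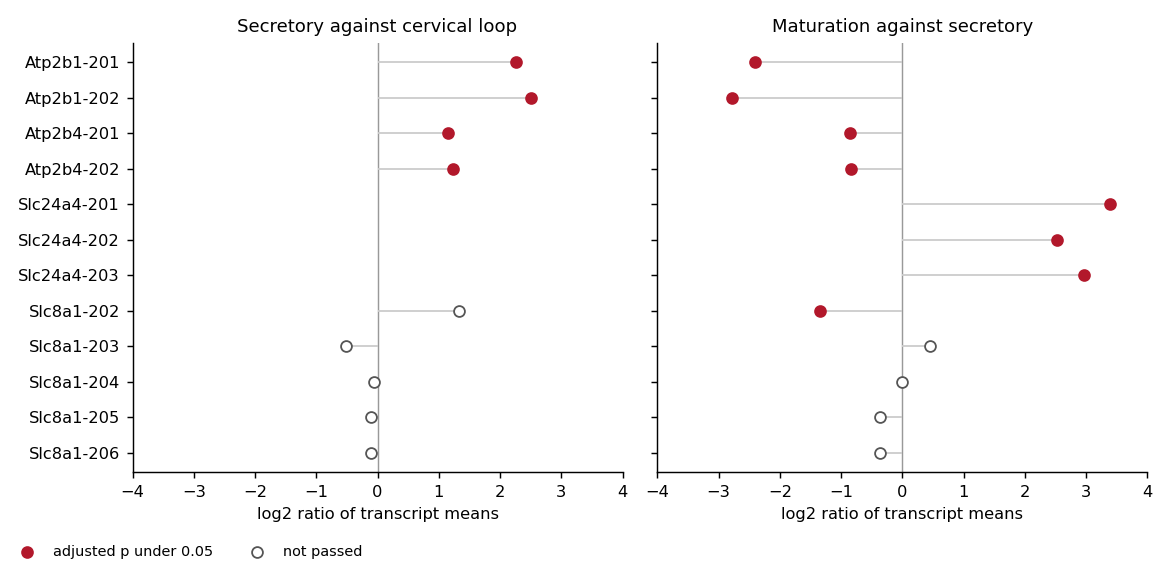
Log2 ratio of transcript means (horizontal axes) for 12 transcripts of Atp2b1, Atp2b4, Slc24a4 and Slc8a1 in the 2 successive steps, those of Slc24a4 in the second step alone; filled points passed an adjusted p of 0.05. Transcripts of Atp2b1 and Atp2b4 rise and then fall together, all 3 of Slc24a4 rise in the second step, and Slc8a1-202 is the only filled point of Slc8a1. Atp2b2, at or below 0.1 in secretory cells in the table against maturation, is not drawn.

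The isoform tables covered 5 of the 10 genes with 14 transcripts. Of these, 4 were higher and 1 lower in secretory cells than in the cervical loop (16.0% of all 9949 transcripts were called either way). In maturation against secretory cells 3 were higher and 5 lower (17.0% of all transcripts), and in maturation against the cervical loop 3 were higher and 2 lower (25.1%). Those last 3 higher ones were the Slc24a4 transcripts, whose cervical loop means were below 0 in that comparison. No gene of the 5 passed for isoform make-up in any comparison, the lowest FDR being 0.451, 0.368 and 0.244 in the authors' deposited tables, beside 1.19%, 1.80% and 2.79% of all genes tested.

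Slc24a2 and Atp2b3, related genes outside the 10, had patterns of their own. Slc24a2, a potassium-dependent exchanger of neurons, had means of 2.46, 0.236 and 2.67 in cervical loop, secretory and maturation cells in the authors' deposited table. It was low in secretory cells alone, 10.4-fold below the cervical loop (FDR = 0.00139) and 11.3-fold below maturation (FDR = 0.000949), in the authors' deposited table. With 1 added to each mean these folds were 2.80 and 2.97. Atp2b3, a calcium pump mainly of neural tissue, had means of 2.06, 2.51 and 0.150 in the authors' deposited table. Like Slc8a3 it was lower in maturation, 16.7-fold below secretory cells (FDR = 0.000244) and 13.7-fold below the cervical loop (FDR = 0.000155), in the authors' deposited table. With 1 added, those folds were 3.05 and 2.66. Of 7 neuron and Schwann cell markers, 2 rose and 3 fell into the secretory stage (beside 16.5% and 25.2% of all genes). Into maturation 3 rose and 0 fell (beside 21.8% and 21.1% of all genes). The summed means of the 7 markers were 23.3, 29.3 and 47.6 in the authors' deposited table, with none at or below 0.1. The part of nerve in the values of Slc24a2, Atp2b2, Atp2b3 and Slc8a3 was not tested.

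Transcripts of 9 genes whose proteins assemble with pumps or exchangers were measured. Into the secretory stage 4 rose and 3 fell (beside 16.5% higher and 25.2% lower of all genes), and into maturation 3 rose and 1 fell (beside 21.8% and 21.1% of all genes). Ank2, an ankyrin that anchors the sodium-calcium exchanger, stood at 56.1, 92.4 and 21.8 in cervical loop, secretory and maturation cells (FDR = 0.00317, then FDR = 0.000157, for the successive steps), in the authors' deposited table. Slc9a3r1, a scaffold protein, had means of 6.04, 2.88 and 15.2, lowest in secretory cells and highest in maturation (FDR = 0.00627, then FDR = 0.000378), in the authors' deposited table.

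Among organelle calcium pumps and their regulators, 8 measured, 2 rose and 0 fell into the secretory stage (beside 16.5% higher and 25.2% lower of all genes). Into maturation 5 rose and 1 fell (beside 21.8% and 21.1% of all genes). Atp2a2, the pump that fills the endoplasmic reticulum, had means of 144, 565 and 915 over the 3 stages, in the authors' deposited table. Each step passed (3.92-fold, FDR = 0.000597, then 1.62-fold, FDR = 0.00976), in the authors' deposited table. Atp2b1 and Atp2a2 thus both rose into the secretory stage, and from there Atp2b1 fell while Atp2a2 rose. Tmem165, a Golgi transporter, stood at 28.9, 42.1 and 16.1 and was highest in secretory cells (FDR = 0.0103, then FDR = 0.000401), in the authors' deposited table.

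Among genes of calcium entry and release, 18 measured, 9 rose and 2 fell into the secretory stage (beside 16.5% higher and 25.2% lower of all genes). Into maturation 9 rose and 2 fell (beside 21.8% and 21.1% of all genes). Stim1, the sensor of calcium in the endoplasmic reticulum, had means of 25.01, 88.1 and 232 over the 3 stages (FDR = 0.000638, then FDR = 0.000829), in the authors' deposited table. Itpr1, a calcium release channel of that store, had means of 109, 1909 and 67.9, with the high value in secretory cells as for Atp2b1 (FDR = 0.000647, then FDR = 0.000327), in the authors' deposited table. Of 4 cytosolic buffers, 1 rose and 1 fell into the secretory stage, and 1 rose and 0 fell into maturation. S100g, a small calcium-binding protein, had means of 0.616, 1.11 and 27.6 over the 3 stages (FDR = 0.782, then FDR = 0.00148), in the authors' deposited table. Calb1, another buffer protein, had means of 160.4, 723 and 622 over the 3 stages (FDR = 0.0219, then FDR = 0.806), in the authors' deposited table.

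Sodium pump genes, whose products keep up the gradient the exchangers use, rose in 5 and fell in 2 of 13 cases into the secretory stage, and rose in 6 and fell in 2 into maturation. Among mitochondrial calcium genes, the system to which the exchanger Slc8b1 belongs, 3 of 11 rose and 3 fell into the secretory stage, and 5 rose and 1 fell into maturation. For these lists too the background was 16.5% higher and 25.2% lower of all genes, then 21.8% and 21.1%. The median difference from secretory to maturation cells on the log2(mean + 1) scale was 0.34 for organelle pumps, 0.51 for entry and release, 0.99 for the sodium pump, 0.30 for mitochondrial genes, 0.17 for buffers, 0.16 for partners and -0.02 for Slc24a2 with Atp2b3, beside 0.0030 for all genes and -0.06 for the 10 exchangers and pumps. The lists are small and differences between them were not tested.

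**Figure D5:**
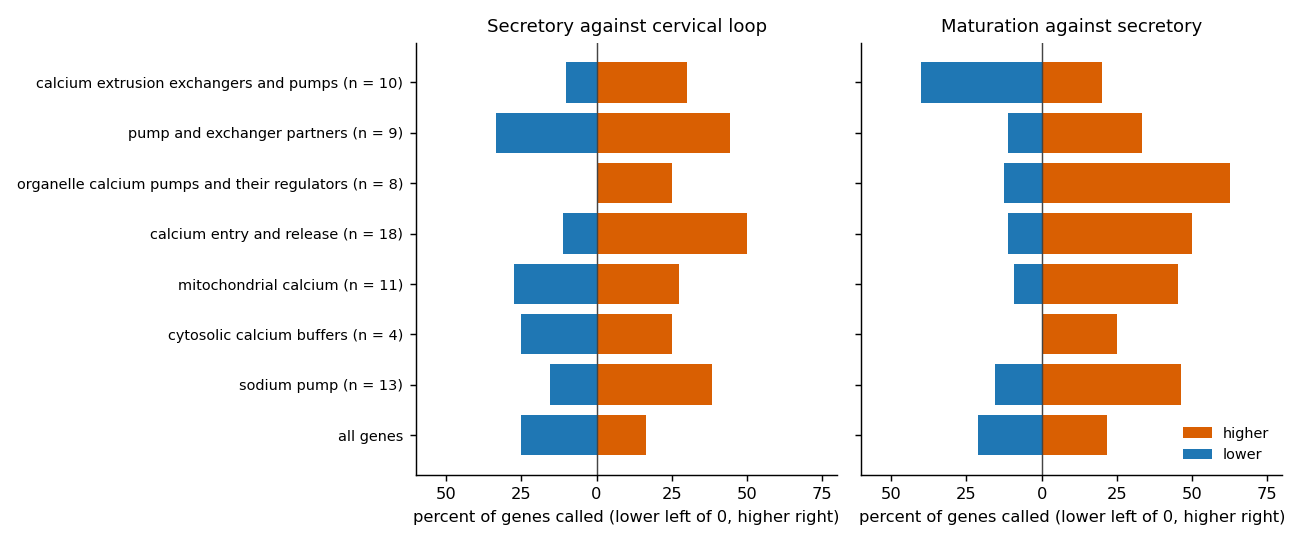
Percent of each gene list called higher (orange, right of 0) or lower (blue, left of 0) in the 2 successive steps, beside all genes. In maturation against secretory cells the 10 exchangers and pumps have 4 genes lower and 2 higher, and the other lists shown have more genes higher than lower.

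Markers of other cells moved between stages beside these values. Of all genes, 16.5% were called higher and 25.2% lower into the secretory stage, then 21.8% and 21.1% into maturation. Of 5 myeloid markers, 4 rose from the secretory stage to maturation, with summed means of 210, 176 and 640 in the authors' deposited table. Of 5 endothelial markers, 2 rose into the secretory stage and 3 into maturation, with summed means of 146, 201 and 300.5 in the authors' deposited table. Odontoblast and bone markers summed to 353, 135 and 117 in the authors' deposited table, with 0 of 6 called in secretory against cervical loop and 1 lower in maturation against secretory cells. Dspp and Sost of the last list were at or below 0.1 in maturation, and the part of these 3 lists in the levels of the exchangers and pumps was not tested.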

How the data were processed

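RNA-seq values were taken from the tables the authors deposited: least-squares means per gene and stage, per the file headers, whose unit is not stated. The authors' deposited p-values, FDR and ratio columns compare the 3 pairs of stages, and similar tables cover transcripts. Reads were handled with STAR 2.5.3a and Partek on build rn6, per the submitters' processing notes; which annotation, filter, normalisation and model they used is not given in the sources used here. The deposited total column, a summed signal, fitted multiples of 3.99 (cervical loop), 3.99 (secretory) and 5.01 (maturation) of the means, near 4, 4 and 5, or 13 libraries. This disagrees with the 14 expected if every rat had given all 3 populations and 1 cervical loop library was dropped, and was not settled. Reads counted per gene are not given, so the depth behind each value is unknown. Here p-values were adjusted by Benjamini-Hochberg (Python 3.11.15, pandas 2.3.3), which returned the authors' FDR. The adjustment was also run on simulated data with a model of its own, which is no check of the deposited p-values. Directions follow the means. Means of 0.1 or less give no fold. Members and lists were chosen with earlier results of these data known. Named genes are all 10 members, at most 3 called genes per list and direction for maturation against secretory cells, at most 2 for secretory cells against the cervical loop, and the 5 genes nearest to Slc24a4; a part of them is described, and some are not reported here. Single markers named beside a count were chosen after their values were seen. Alternatives were the adjustment, threshold, filter, minimum fold, pseudocount and source of means.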

Additional observations from a re-analysis of the deposited data

How the results depend on the processing

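No paired analysis was possible because each stage has 1 deposited mean and no replicate numbers, and leaving out a rat was likewise not possible. The counts of called exchanger and pump genes were within 1.5 times their reported values under each of 4 settings in every comparison: adjustment over all 3 pairs of stages, a threshold of 0.01, only genes with a largest mean of at least 1, and a minimum ratio of 2. The calls lost were Slc8b1 and Slc24a5 at 0.01, and Slc8b1, Atp2b4 (maturation against secretory cells) and Slc24a5 at the minimum ratio. That filter kept Atp2b2 by the ratio of its deposited means, of which those at or below 0.1 otherwise give no fold. With such genes left out, an alternative chosen after seeing the data, the counts were 3 (secretory against cervical loop), 4 (maturation against secretory) and 2 (maturation against cervical loop), the last from a reported 4. Called transcripts in secretory against cervical loop cells fell from 5 to 3 at a threshold of 0.01. Of the 5 genes nearest to Slc24a4, 2 remained with a pseudocount of 0.1 and 2 when the level was not centred. The means of the per-stage lists kept the 27 folds that could be given within 1.5 times. These lists nearly repeat the means used here, so they are no independent check. Slc24a4 in secretory against cervical loop cells, for example, was 5.191 and 5.194 in log2. With 1 added, 2 of 27 folds moved further, those of Slc24a4 against the cervical loop (4.48 and 8.10 in log2). Atp2b2, at or below 0.1 in 2 stages, has no fold to vary. Without depth per gene or per-library values, low means such as those of Slc24a1 and Atp2b2 cannot be given a counting error.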

Other observations

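Among 64 other genes of the calcium and sodium pump lists, 6 passed as higher in secretory cells than in both other stages. Atp2b1, Atp2b4 and Slc24a3 did so too, as did 7.99% of all genes. The 6 were Ank2, Tmem165, Itpr1, Micu3, Fxyd3 and Fxyd4 (chosen for naming after their values were seen). Fxyd4, a regulator of the sodium pump, had means of 0.307 in the cervical loop, 28.6 in secretory and 0.237 in maturation cells, in the authors' deposited table. Micu3, a regulator of the mitochondrial calcium uniporter, had means of 3.37, 5.12 and 2.42, in the authors' deposited table. The pattern of Slc24a4, passing as higher in maturation than in both other stages, was shared by 24 of the 64 genes. Of all genes, 14.6% had it. The 24 include Stim1, Stim2, Orai1, Orai2 and Orai3 of store-operated calcium entry, and Atp1b1 and Atp1b3 of the sodium pump. These were likewise named after their values were seen. Slc24a2, which passed as lower in secretory cells than in both other stages, shared that pattern with Fxyd1 and Slc9a3r1 among others. In all, 6 of the 64 genes had it, beside 6.20% of all genes.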
